A study of Mus musculus with 16 samples.

Results

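Left and right ventricles were compared within each embryo in mouse hearts with HLHS (hypoplastic left heart syndrome), in which the left ventricle stays small. The 6 libraries labelled HLHS, the left and the right ventricle of 3 embryos, were taken from 16 libraries in all. The other 10 libraries came from both ventricles of 5 littermates without the malformation and served as the reference for normal chamber differences. Of the HLHS embryos, 1 was taken at each stage, which the labels give in embryonic days as E13.5, E14.5 or E17.5 (replicates 1, 2 and 3 here), and the controls were 1, 2 and 2 embryos of the same litters. Per the labels, all groups had a C57BL/6 background, and no treatment is named. The labels give the phenotype of each embryo and no genotype or allele, so the HLHS group is defined by its malformation alone, with 1 animal at each stage. The study is known for mutations of Sap130, a subunit of a Sin3 histone deacetylase complex, and Pcdha9, a protocadherin.

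In the normal heart the left ventricle grows mainly from first heart field cells, whereas the right ventricle and the outflow tract grow from the second heart field. Hand1 and Tbx5 are transcription factors known for their left-sided expression in the developing ventricles, and Hand2 and Isl1 are known for the right ventricle and the second heart field. The mesenchyme of the valve cushions, which lies next to both chambers, uses cartilage-type matrix genes such as those of collagen II and collagen IX under the transcription factor Sox9. In bulk tissue, fewer cells of a type and less RNA per cell cannot be told apart.

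The HLHS libraries held 18796195 to 27089273 counts, and all 16 libraries 17081273 to 28648645. Levels are normalised read counts scaled to library size (CPM). Heart muscle was present in each library, with Tnnt2, the cardiac troponin T gene, at 2213 to 3165 CPM in HLHS left ventricles and 2579 to 3046 CPM in HLHS right ventricles. Of the 10 skeletal muscle markers, Myod1 and Pax7 were at 0 in the 6 HLHS libraries, while Myog, a factor of muscle differentiation, stood at 0.156 to 0.604 CPM. The 10 summed to 198 to 787 CPM in left and 291 to 746 CPM in right HLHS ventricles. The 10 lung and liver markers summed to 1.63 to 2.31 CPM there. Both ventricles had the same sex by Xist and Ddx3y in 8 of 8 embryos, although the right library of control replicate 4 held Xist at 34.7 CPM beside Ddx3y at 76.9 CPM, where its left partner had Xist at 1.25 CPM. In a principal component analysis of the HLHS libraries, the first component (45.0% of the variance) ordered the stages. The second (24.3%) separated the left ventricles, at scores of 19.1 to 30.4, from the right ones, at −27.8 to −19.9.

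In HLHS hearts 4 of 6 left ventricle markers were higher on the left, while 14 of 22 valve mesenchyme genes and 20 of 39 matrix genes were higher on the right. Of 15 second heart field genes, 3 were higher on the right. They include Isl1, which met the count filter on the right alone and so had to differ. Hand1 was 4.93-fold higher in the left than in the right ventricle, and Fbln5, which encodes the elastic fibre protein fibulin 5, was 7.71-fold higher in the right. Of 15319 genes tested, 546 differed between the sides (3.56%), 131 higher on the left (0.855%) and 415 higher on the right (2.71%). The difference was at least 2-fold for 42 of the left and 221 of the right genes, and each of the 546 had the same direction in 3 of 3 embryos. With 3 pairs a gene can hardly be called otherwise, so this direction is no separate evidence. Sides were tested with edgeR (quasi-likelihood) and a term for each embryo, the threshold was a Benjamini-Hochberg adjusted p under 0.05, and differences are given as left minus right on the log2 scale with the standard error (SE). The count was 270 without the E14.5 embryo and 1117 without the E17.5 embryo. Of the 546 genes, 248 and 502 were called again in these fits. The count filter asked for about 10 reads (0.401 CPM) in 3 libraries. In 27 of the 546 no library of the other side reached that level, so that these had to differ. Other called genes, such as Sfrp5, Notum and Mybpc1, reached it in only part of their low side. They met the filter through their high side and are not among the 27, so their calls share this limit in part.

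Among the left markers, Hand1 stood at 37.5, 19.4 and 10.1 CPM in the left ventricles, in order of stage, and at 6.97, 4.15 and 2.16 CPM in the right ones. Levels of HLHS hearts are given in this order throughout. The level was higher on the left in every embryo and lower at each later stage on both sides. The difference was 2.30 ± 0.13 (adjusted p = 0.000864), beside 2.44 ± 0.10 in controls, whose left ventricles held 38.3, 22.3, 23.3, 13.9 and 14.2 CPM in replicates 1 to 5 and whose right ventricles held 6.16, 4.96, 4.14, 2.00 and 3.16 CPM. The HLHS difference minus the control difference was −0.14 ± 0.17 (adjusted p = 0.935).

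Gja5, the gap junction gene of trabecular muscle and fast conduction, stood at 267, 151 and 104 CPM in the left and 58.9, 64.1 and 51.3 CPM in the right HLHS ventricles, and the groups did not overlap. Its difference was 1.48 ± 0.20, beside 1.32 ± 0.10 in controls. Nppa, which encodes the atrial natriuretic peptide and marks trabecular muscle, stood at 258, 213 and 117 CPM on the left and 132, 96.8 and 90.3 CPM on the right. Its difference of 0.83 ± 0.14 was close in size to 0.74 ± 0.14 in controls. Cited1, a transcriptional co-regulator, differed by 0.50 ± 0.10 and by 0.62 ± 0.06 in controls. Tbx5 stood at 57.7, 46.5 and 36.6 CPM on the left and 24.8, 28.9 and 33.0 CPM on the right. It had a difference of 0.68 ± 0.18 that did not pass in HLHS hearts (adjusted p = 0.0888) and one of 0.44 ± 0.10 that passed in controls. Pln, the gene of the calcium pump inhibitor phospholamban, had −0.21 ± 0.14. Of 6 left ventricle markers tested, 4 were thus higher on the left and 0 on the right, with a median of 0.76, and in controls 5 were higher on the left (median 0.68), where 0.855% and 2.1% of all genes tested were higher on the left in HLHS and control hearts. The call of Nppa was lost without the E14.5 embryo and that of Cited1 without the E13.5 embryo.

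Among genes whose log2 CPM averaged 2 or more, the largest left differences were those of Spp1, which encodes the secreted matrix protein osteopontin, and Nrn1, which encodes the neurite growth protein neuritin. Spp1 stood at 3.10, 16.1 and 33.2 CPM in the left and 0.804, 2.52 and 2.55 CPM in the right ventricles, a difference of 2.97 ± 0.29. It rested on low values on the right and spanned a wide range across embryos on the left. Nrn1 stood at 16.4, 19.3 and 18.6 CPM on the left and 1.55, 2.45 and 4.36 CPM on the right, a difference of 2.75 ± 0.24. Gtsf1, a gene of the small RNA pathway of the germ line, stood at 17.8, 10.9 and 3.58 CPM on the left and 1.82, 2.84 and 0.863 CPM on the right. Its difference of 2.43 ± 0.28 was 2.79 ± 0.15 in controls, where Spp1 had 3.90 ± 0.36 and Nrn1 2.18 ± 0.12. These 3 genes had been named as left markers from these same libraries, so their direction is no independent evidence. Sfrp5, a secreted Wnt antagonist, stood at 4.63, 1.88 and 3.31 CPM on the left and 0.322, 0.284 and 0.706 CPM on the right. Its difference of 2.83 ± 0.34 was larger than that of Nrn1, at a lower average level. Sfrp5 met the count filter through its left libraries, as part of its right side lay below 0.401 CPM.

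Others among the 15 largest left differences were Gpnmb (1.66 ± 0.25), a membrane glycoprotein of macrophages and bone, Ntn1 (1.20 ± 0.09), the axon guidance protein netrin 1, Irx1 (1.13 ± 0.13), a transcription factor of trabecular muscle, and Sept3 (1.32 ± 0.16), a septin. Ntn1 had 1.16 ± 0.09 in controls. C1ql3, a secreted C1q-like protein, stood at 13.2, 12.2 and 3.42 CPM on the left and 2.46, 1.92 and 1.49 CPM on the right, a difference of 2.16 ± 0.28. In controls its difference was 0.25 ± 0.21 and did not pass. Krt19 (1.52 ± 0.32) and Krt80 (1.24 ± 0.24), both keratins of epithelial cells, passed in HLHS hearts but not without the E14.5 embryo.

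**Figure D1:**
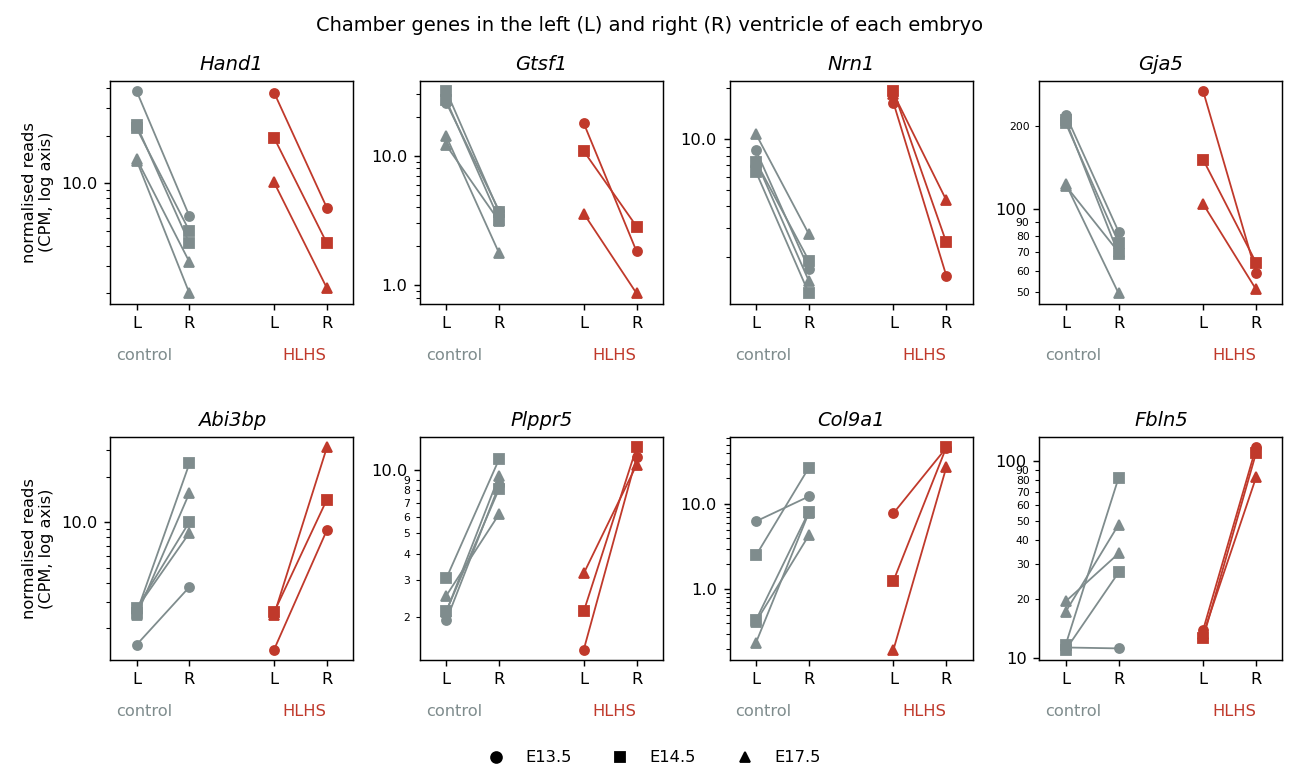
Normalised read counts (CPM, log axis) of 4 left and 4 right genes in the left (L) and right (R) ventricle of each embryo. Each line joins the ventricles of 1 embryo, grey for the 5 controls and red for the 3 HLHS embryos, with the marker giving the stage. The HLHS lines slope the same way as most control lines, and for Fbln5 the HLHS right ventricles, at 82.8 to 118 CPM, lie above the highest control right ventricle (82.6 CPM).

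Among genes at or above the same average level, the largest right differences included those of matrix and muscle genes. Col9a1, a collagen IX chain of cartilage and valve mesenchyme, stood at 7.82, 1.25 and 0.194 CPM in the left and 46.0, 46.5 and 27.1 CPM in the right ventricles, a difference of −4.15 ± 0.57. Mybpc1, the slow skeletal form of myosin-binding protein C, stood at 0.382, 3.14 and 0.156 CPM on the left and 11.8, 12.1 and 8.99 CPM on the right, a difference of −3.54 ± 0.57. Both were lower in each left ventricle than in any right one, and both passed in controls, at −2.92 ± 0.42 and −3.59 ± 0.26. The skeletal myosin gene Myh8, a marker of skeletal muscle, was right-sided as well (−2.45 ± 0.31, and −2.27 ± 0.21 in controls). The part of skeletal muscle in these differences was not tested. Abi3bp, a matrix protein, stood at 1.44, 2.55 and 2.45 CPM on the left and 8.90, 14.2 and 31.3 CPM on the right (−2.96 ± 0.25, and −2.27 ± 0.23 in controls). Plppr5, a phospholipid phosphatase-related membrane protein, stood at 1.40, 2.13 and 3.23 CPM on the left and 11.5, 12.8 and 10.6 CPM on the right (−2.40 ± 0.25, and −1.87 ± 0.13 in controls). The monoamine oxidase gene Maob (−1.50 ± 0.16) and the glutamate receptor gene Gria1 (−1.35 ± 0.19) also passed, and in controls they had −1.11 ± 0.07 and −1.45 ± 0.10. Abi3bp, Plppr5, Maob and Gria1 had likewise been named as right markers from these libraries.

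Promoters are shown for the 2 left and the 2 right genes with the largest differences that passed in both phenotypes and had an entry in the RefSeq promoter table (build GRCm38.p6). Each runs from 250 bases before to 50 bases after the start of the gene, and for Spp1 and Col9a1, which have 2 starts in the table, the first was used. They are Spp1 at chr5:104434861-104435160 (plus strand), Sfrp5 at chr19:42202203-42202502 (minus strand), Col9a1 at chr1:24177360-24177659 (plus strand) and Mybpc1 at chr10:88605103-88605402 (minus strand). Capitals mark matches, on either strand, to the motifs of heart factors that were searched.
Spp1: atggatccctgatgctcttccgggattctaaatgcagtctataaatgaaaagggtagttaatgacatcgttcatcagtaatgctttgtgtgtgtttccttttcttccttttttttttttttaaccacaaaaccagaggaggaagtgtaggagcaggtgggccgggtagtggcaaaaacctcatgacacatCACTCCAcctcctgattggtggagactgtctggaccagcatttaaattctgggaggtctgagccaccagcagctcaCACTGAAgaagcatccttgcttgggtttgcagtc
Sfrp5: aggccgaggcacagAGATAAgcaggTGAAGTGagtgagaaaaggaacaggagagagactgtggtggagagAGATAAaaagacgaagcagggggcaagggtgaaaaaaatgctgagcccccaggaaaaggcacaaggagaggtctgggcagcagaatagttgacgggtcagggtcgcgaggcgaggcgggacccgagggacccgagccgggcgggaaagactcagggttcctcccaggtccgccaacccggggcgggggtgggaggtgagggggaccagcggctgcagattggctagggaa
Col9a1: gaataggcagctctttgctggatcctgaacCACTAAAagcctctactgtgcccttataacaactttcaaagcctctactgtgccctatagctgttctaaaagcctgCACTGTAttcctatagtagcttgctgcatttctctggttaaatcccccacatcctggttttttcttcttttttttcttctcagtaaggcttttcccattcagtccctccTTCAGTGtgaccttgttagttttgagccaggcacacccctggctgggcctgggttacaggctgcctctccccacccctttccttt
Mybpc1: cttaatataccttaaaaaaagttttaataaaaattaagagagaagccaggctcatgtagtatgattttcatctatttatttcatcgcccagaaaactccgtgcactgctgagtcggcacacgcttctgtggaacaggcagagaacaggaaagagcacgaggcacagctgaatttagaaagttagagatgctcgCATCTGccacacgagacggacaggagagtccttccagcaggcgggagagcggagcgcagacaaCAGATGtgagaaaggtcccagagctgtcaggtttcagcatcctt
The NKX2-5 motif TNNAGTG matched at 2 places in Spp1, 1 in Sfrp5 and 3 in Col9a1, and 39.5% of the 27025 promoters of the table hold it. The GATA motif AGATAA matched at 2 places in Sfrp5 and is in 11.4% of promoters. The E-box CATCTG matched at 2 places in Mybpc1 and is in 17.2%. The T-box motif TCACACC (3.96% of promoters) and the hypoxia response motif ACGTG (19.7%) had no match in these 4 windows, and no match overlapped another.

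The second heart field genes gave a few large right differences and many near 0. Isl1, which marks second heart field progenitors, stood at 0, 0.293 and 0.0389 CPM in the left and 5.09, 3.16 and 1.69 CPM in the right HLHS ventricles (adjusted p = 0.00641). It passed the count filter through the right ventricles alone and was not tested in controls, so it had to differ. Sema3c, a guidance cue of the outflow tract, stood at 14.9, 28.3 and 9.22 CPM on the left and 34.1, 38.2 and 31.4 CPM on the right, a difference of −1.11 ± 0.22 that was −1.08 ± 0.12 in controls. The forkhead factor gene Foxc2 had −0.65 ± 0.12, which did not pass without the E13.5 embryo. Hand2 stood at 84.9, 80.6 and 81.0 CPM on the left and 115, 117 and 90.4 CPM on the right. Its difference of −0.38 ± 0.09 did not pass (adjusted p = 0.0719), and −0.34 ± 0.05 passed in controls. Of 15 genes of this list tested, 3 were higher on the right (20%) and 0 on the left, Isl1 among the 3, with a median of −0.09. Over all genes 2.71% were higher on the right. In controls, where Isl1 was not tested, 4 of 15 were higher on the right, beside 4.04% of all genes.

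Of the genes that differed between the ventricles of controls, most had the same direction in HLHS hearts. The controls and the HLHS hearts share no sample. In controls, 943 of 15356 genes differed (6.14%), 323 higher on the left (2.1%) and 620 on the right (4.04%), and 936 of them were also tested in HLHS hearts. Of these, 864 (92.3%, 95% Wilson interval 90.4 to 93.8%, over genes, which are not independent replicates) had the same sign in HLHS hearts. There 250 of the 936 passed with the same sign and 0 with the other. Without the E14.5 HLHS embryo 164 passed with the same sign and 0 with the other, without the E13.5 one 272 and 3, and without the E17.5 one 353 and 19. Among all 15062 genes tested in both, 67.5% had the same sign, with r = 0.638 and rho = 0.483 across genes, a description only. Both counts of calls come from different numbers of embryos: with 1 control embryo per litter, 213 to 416 control genes passed, beside 546 in HLHS hearts. The control count was 579, 459 and 543 without control replicates 2, 3 and 5.

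The medians of the control differences moved little in HLHS hearts. The 321 left genes had a median of 0.32 in controls and 0.30 in HLHS hearts, a ratio of 0.94, and the 615 right genes −0.58 and −0.56, a ratio of 0.97. Of the 26 left and 162 right genes with an at least 2-fold difference in controls, 26 and 157 had the same sign in HLHS hearts. By embryo, the median left minus right of the left genes was 0.28, 0.45 and 0.22 in HLHS hearts. The 5 controls lay between 0.26 and 0.40. For the right genes it was −0.45, −0.59 and −0.61, beside −0.70 to −0.41 in controls. The HLHS embryo at E17.5 lay just below the control range for left genes and the one at E14.5 above it, with 1 HLHS embryo at each stage and hence no test of stage. In the other direction, 498 of 528 genes called in HLHS hearts had the same sign in controls, at 0.36 (left) and 0.46 (right) of the HLHS median, where the HLHS values had chosen the genes.

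**Figure D2:**
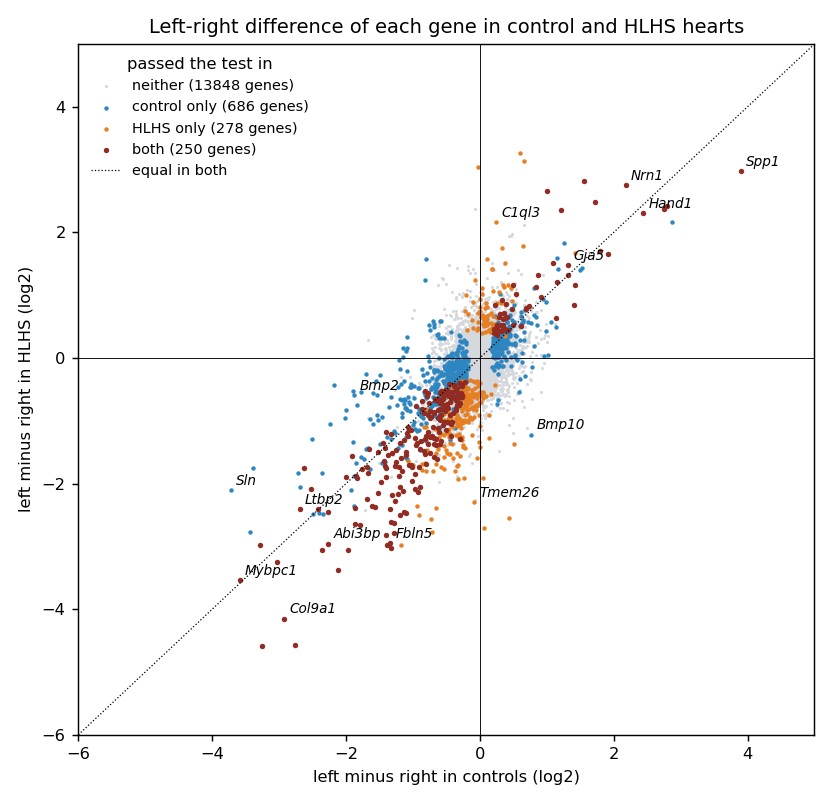
Left minus right on the log2 scale in controls (x axis) and HLHS hearts (y axis), 1 point for each of 15062 genes, coloured by the fit in which it passed. The 250 genes that passed in both lie in the lower left and upper right quadrants, with none in the other 2.

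**Figure D3:**
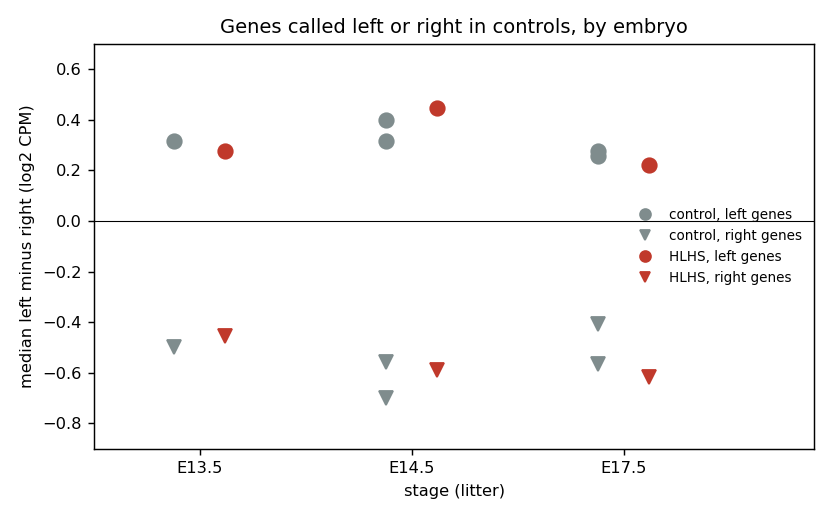
Median left minus right (log2 CPM) of the 321 left and 615 right genes of the control fit in each embryo, by stage. Circles are left genes and triangles right genes. The left medians of HLHS embryos (red) are 0.22 to 0.45 and their right medians −0.61 to −0.45, while the controls (grey) helped to choose the genes.

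Genes of the valve mesenchyme and the extracellular matrix had many members higher on the right. Of 22 valve mesenchyme genes tested, 14 were higher on the right (63.6%, beside 2.71% of all genes) and 0 on the left. The median of the list was −1.32, beside −0.00 over all genes tested. In controls 14 of 22 were higher on the right (63.6%, beside 4.04%), with a median of −0.60. Those right-sided in HLHS hearts included Col9a3 (−3.37 ± 0.36), the collagen II gene Col2a1 (−2.66 ± 0.33), Hapln1 (−2.24 ± 0.41), which links hyaluronan to proteoglycans, and the Wnt inhibitor Wif1 (−1.87 ± 0.29). Col2a1 stood at 14.2, 18.4 and 0.350 CPM on the left and 133, 61.2 and 6.87 CPM on the right, lower on the left within each embryo but with overlap of the groups across stages. Sox9, chosen after its values were seen, had −1.53. The 22 genes summed to 1148, 1016 and 677 CPM in the left and 1878, 1586 and 1321 CPM in the right HLHS ventricles, 0.611, 0.641 and 0.512 of the right level, and to 0.576 to 0.94 of the right level in controls. How much valve tissue each dissected ventricle held was not tested. Hapln1 and the Wnt effector Lef1 did not pass without the E14.5 embryo.

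Of 39 matrix genes, 20 were higher on the right in HLHS hearts (51.3%, beside 2.71% of all genes) and 1 on the left (2.56%, beside 0.855%). The median of the list was −0.54. In controls 6 were higher on the right (15.4%, beside 4.04%), with a median of −0.17. Without the E14.5 embryo 12 were higher on the right in HLHS hearts. Fbln5 stood at 13.9, 12.7 and 13.2 CPM in the left and 118, 110 and 82.8 CPM in the right HLHS ventricles, and Eln, the elastin gene, at 77.4, 115 and 177 and at 901, 624 and 658 CPM. Both were several-fold lower in each left ventricle than in any right one. The differences were −2.95 ± 0.11 for Fbln5 and −2.61 ± 0.27 for Eln, beside −1.35 ± 0.29 and −1.33 ± 0.25 in controls. The test of HLHS against control did not pass for Fbln5 (−1.60 ± 0.43, adjusted p = 0.22). Tgfbi (−1.53 ± 0.09), a matrix protein induced by TGF-beta, and the small proteoglycan gene Lum (−1.46 ± 0.11) also passed. The list summed to 0.665 to 0.796 of the right level in the left HLHS ventricles and to 0.695 to 1.27 in controls. In the comparison of HLHS with control by side, 1 of the list (P4ha3) passed, beside 0.0185% of all genes, and 8 passed, all more right-sided in HLHS, beside 0.975% of all genes, when side was allowed to differ by stage.

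In the lists of secreted signals and their targets, more genes were right-sided than left-sided, as among all called genes (415 and 131). Over all genes tested, 2.71% were higher on the right and 0.855% on the left in HLHS hearts, and 4.04% and 2.1% in controls. Of 29 genes of Wnt signalling, 10 were higher on the right (34.5%) and 1, Sfrp5, on the left, and in controls 11 and 1. The right-sided ones included the Wnt deacylase Notum (−2.82 ± 0.30), Sfrp2 (−2.36 ± 0.15), a secreted Wnt modulator, the ligand gene Wnt9b (−2.09 ± 0.17) and Dkk3 (−1.43 ± 0.18). Rspo3, a secreted Wnt amplifier, had −1.29 ± 0.33 and did not pass (adjusted p = 0.0859), beside −2.51 ± 0.28 in controls. Of 33 TGF-beta and BMP genes, 8 were higher on the right (24.2%) and 0 on the left, and in controls 9 and 1. Ltbp2, a latent TGF-beta binding protein, had −2.41 ± 0.16, the ligand gene Bmp4 −0.96 ± 0.13 and the target gene Id2 −0.84 ± 0.09. Without the E14.5 embryo 5 of the list were higher on the right, and without the E17.5 embryo 3 were higher on the left. Ltbp2 stood at 7.69, 7.11 and 6.34 CPM on the left and 34.8, 32.5 and 46.1 CPM on the right, with little spread within a side.

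Of 37 axon guidance genes, 8 were higher on the right (21.6%, beside 2.71% of all genes) and 2 on the left (5.41%, beside 0.855%), Nrn1 and Ntn1. Of the 8, Cntn2 met the count filter through the right ventricles alone. In controls 7 of 37 were higher on the right (18.9%, beside 4.04%) and 2 on the left (5.41%, beside 2.1%). The netrin receptor gene Unc5c (−2.16 ± 0.37) and the Slit receptor gene Robo1 (−1.22 ± 0.19) were right-sided, opposite to their list mate Ntn1. Of 33 growth factor genes, 5 were higher on the right (15.2%) and 3 on the left (9.09%). Without the E13.5 embryo 10 were on the right, and without the E14.5 embryo 0 were on the left. In controls 11 of 34 were higher on the right (32.4%, beside 4.04% of all genes) and 2 on the left (5.88%, beside 2.1%). The median of the list was −0.23 in both phenotypes. The FGF receptor gene Fgfr2 stood at 15.3, 9.70 and 9.96 CPM on the left and 36.7, 36.4 and 26.0 CPM on the right (−1.51 ± 0.14), and Igf1, insulin-like growth factor 1, had −0.76 ± 0.08. Igfbp2, an IGF binding protein, was left-sided (0.64 ± 0.11, and 1.13 ± 0.07 in controls), a call lost without the E13.5 or the E14.5 embryo. Of 15 retinoic acid genes, 2 were right-sided (13.3%), Cyp26b1 (−1.48 ± 0.21), an enzyme that degrades retinoic acid, and Crabp1, a retinoic acid binding protein, and 3 in controls (20%). Crabp1 stood at 0.255, 0.293 and 0.0389 CPM on the left and 1.98, 3.09 and 0.589 CPM on the right. It met the count filter through the right ventricles alone, so it had to differ. Rxfp1, the relaxin receptor, stood at 2.34, 3.14 and 5.17 CPM on the left and 22.2, 15.1 and 28.3 CPM on the right (−2.63 ± 0.20).

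**Figure D4:**
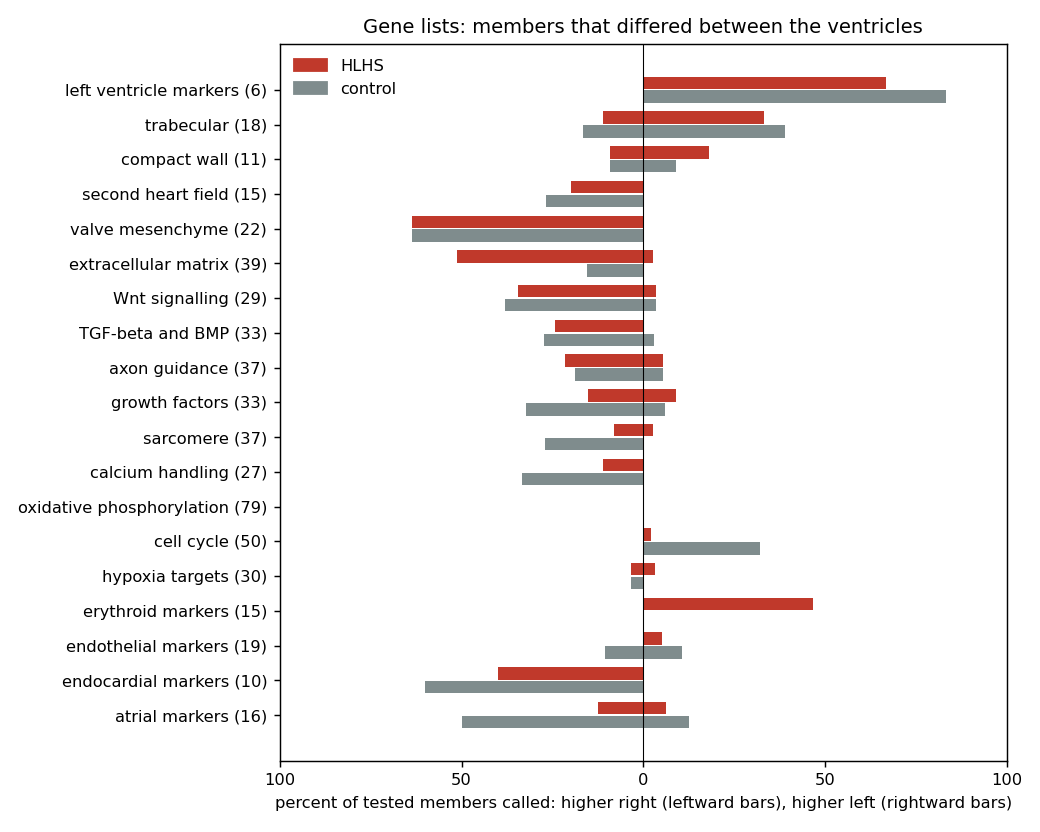
Percent of the tested members of 19 gene lists that were higher on the right (bars to the left of 0) or on the left (bars to the right of 0), in HLHS hearts (red) and controls (grey), with the number tested in HLHS hearts in brackets. Matrix genes reach 51.3% on the right in HLHS hearts and 15.4% in controls, and erythroid markers 46.7% and 0% on the left, while over all genes 2.71% were higher on the right and 0.855% on the left in HLHS hearts.

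The general genes of ventricular muscle did not pass the test between the sides. Myl2, the ventricular myosin light chain, stood at 1977, 2034 and 1993 CPM on the left and 1933, 1592 and 1699 CPM on the right (0.21 ± 0.11). Myh7, the slow myosin heavy chain (0.09 ± 0.12), Irx4, a ventricular transcription factor (0.21 ± 0.09), Hey2, a repressor of compact muscle (0.01 ± 0.11), Nkx2-5 (0.13 ± 0.08) and Tbx20 (−0.02 ± 0.12) did not pass either, and their SEs leave room for small differences. Of 37 sarcomere genes, 3 were right-sided (8.11%, beside 2.71% of all genes) and 1 left-sided (2.7%, beside 0.855%) in HLHS hearts. In controls 10 were right-sided (27%, beside 4.04%) and 0 left-sided. Myh6, the fast myosin heavy chain, stood at 2278, 1216 and 1781 CPM on the left and 3709, 2689 and 4189.5 CPM on the right, without overlap. Its difference was −1.03 ± 0.13, beside −0.41 ± 0.08 in controls. Myom2, an M-band protein, had −1.51 ± 0.19, and Mybphl, a myosin-binding protein of atrial muscle, −2.98 ± 0.51. Tcap, the titin cap gene, was left-sided (0.48 ± 0.09), a call lost without the E13.5 or the E14.5 embryo.

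Several muscle genes that were right-sided in controls had other values in HLHS hearts. Sln, an atrial calcium pump regulator, stood at 1.15, 2.09 and 0.428 CPM on the left and 0.911, 4.01 and 20.4 CPM on the right. Only the E17.5 embryo had a large difference, and the test did not pass (−2.11 ± 0.90, adjusted p = 0.313), beside −3.72 ± 0.33 in controls. Acta1, the skeletal muscle actin of fetal hearts, and Casq1, a calcium store protein, both chosen after their values were seen, had 0.01 and −0.27 in HLHS hearts and −1.15 and −1.49 in controls. Acta1 stood at 55.6, 156 and 25.4 CPM in the left and 63.9, 55.5 and 63.2 CPM in the right HLHS ventricles, so that the E14.5 embryo went against the others. Without it the difference of Acta1 was −0.74, and that of Casq1 was 0.23 without the E17.5 embryo. The test of HLHS against control did not pass for Sln, Acta1 or Casq1 (adjusted p = 0.832, 0.493 and 0.225). Of 27 calcium handling genes, 3 were right-sided in HLHS hearts (11.1%) and 9 in controls (33.3%). Of 16 atrial markers 2 (12.5%) and 8 (50%) were, where 2.71% and 4.04% of all genes were. These counts come from 3 HLHS and 5 control embryos. The median of the calcium handling genes was −0.01 in HLHS hearts and −0.10 in controls. That of the atrial markers was −0.61 and −0.23, further to the right in HLHS hearts despite fewer calls. Without the E13.5 embryo 6 calcium handling genes and 9 atrial markers were right-sided in HLHS hearts, and without the E14.5 embryo 0 and 3. The atrial markers summed to 0.711 to 0.965 of the right level in the left HLHS ventricles and to 0.718 to 0.906 in controls.

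Trabecular genes were divided. Of 18 tested, 6 were higher on the left (33.3%, beside 0.855% of all genes) and 2 on the right (11.1%, beside 2.71%). In controls 7 were higher on the left (38.9%, beside 2.1%) and 3 on the right (16.7%, beside 4.04%). In HLHS hearts those on the left included Gja5, Ntn1, Irx1 and Nppa. Those on the right were Sema3a, a repulsive guidance cue (−0.97 ± 0.17), and Etv1, a transcription factor of fast conduction (−0.87 ± 0.10). The calls of Nppa and Sema3a were among those lost without the E14.5 embryo, and 5 of the list were right-sided without the E13.5 embryo. Of 11 compact wall genes, 2 were higher on the left (18.2%) and 1, Fgfr2, on the right (9.09%). The 2 were Prdm16 (0.60 ± 0.10) and Mycn (0.66 ± 0.14), both transcription factors of the growing wall, and did not pass without the E14.5 embryo.

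Red blood cell genes were left-sided in HLHS hearts. Of 15 erythroid markers tested, 7 were higher on the left (46.7%, beside 0.855% of all genes) and 0 on the right, with a median of 0.81. In controls 0 of 14 passed in either direction (median 0.09), where 2.1% of all genes were higher on the left. In the test of HLHS against control, 0 of the list passed. When side was allowed to differ by stage, 2 passed as more left-sided and 1 as more right-sided in HLHS hearts. Hba-x, an embryonic alpha globin, stood at 27.7, 17.9 and 1.21 CPM in the left and 11.4, 6.39 and 0.392 CPM in the right HLHS ventricles (1.41 ± 0.15, and 0.18 ± 0.17 in controls). The embryonic beta globin Hbb-y had 1.11 ± 0.13, and the adult globin gene Hba-a2 had 0.66 ± 0.09. Reads of the near-identical globin genes may be split between them. The 18 markers matched summed to 1312, 1625 and 1031 CPM on the left and 861, 1010 and 846 CPM on the right, ratios of 1.52, 1.61 and 1.22, beside 0.892 to 1.26 in controls. The part of blood in the other left differences was not tested. Without these genes in the fit, 531 genes passed, 124 higher on the left. Of the markers, 4 were higher on the left and 1 on the right without the E14.5 embryo, and 11 were higher on the left without the E17.5 embryo.

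Hypoxia and stress genes leaned to the left, mostly without passing the test. Of 30 hypoxia targets, 27 were above 0 in HLHS hearts and 14 in controls, where 49.2% and 49.9% of all genes were. Their medians were 0.23 and −0.02. Only Bnip3, a mitophagy receptor (0.66 ± 0.10), passed on the left and Lox, a collagen crosslinking enzyme (−0.60 ± 0.12), on the right. These were 3.33% on each side, beside 0.855% of all genes on the left and 2.71% on the right. Bnip3 stood at 282, 430 and 343 CPM on the left and 204, 230 and 227 CPM on the right, and did not pass without the E14.5 embryo, whereas 7 of the list passed on the left without the E17.5 embryo. Hmox1, heme oxygenase 1, stood at 69.8, 107 and 47.1 CPM on the left and 29.4, 37.2 and 42.0 CPM on the right, with 0.99 ± 0.22 (adjusted p = 0.0576). Of 24 glycolysis genes, 1 (4.17%), Pfkp, passed on the left (0.48 ± 0.10), a call lost without the E14.5 embryo. Without the E17.5 embryo 3 passed on each side. Of 15 stress genes, Nppa and the small heat shock gene Hspb7 (0.55 ± 0.10) passed on the left (13.3%, beside 0.855% of all genes). In controls 1 passed on the left (6.67%, beside 2.1%) and 4 on the right (26.7%, beside 4.04%). The median of the list was 0.22 in HLHS hearts and −0.11 in controls. The call of Hspb7 was lost without the E14.5 or the E17.5 embryo. Of the list, 0 passed without the E14.5 embryo and 6 passed on the left without the E17.5 embryo (median 0.57).

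Cell cycle genes lay slightly to the left in both phenotypes. All 50 tested were above 0 in HLHS hearts and all 50 in controls, where 49.2% and 49.9% of all genes were, with medians of 0.27 and 0.21. Only Espl1, the separase gene (0.41 ± 0.08), passed in HLHS hearts (2%, beside 0.855% of all genes on the left), and not without the E13.5 or the E14.5 embryo. In controls 16 passed on the left (32%, beside 2.1%). Without the E17.5 embryo 15 passed in HLHS hearts. Mki67, a proliferation marker, stood at 692, 486 and 415 CPM on the left and 610, 356 and 411 CPM on the right (0.22 ± 0.11). Of 79 oxidative phosphorylation genes and 22 citric acid cycle genes, 0 passed in either phenotype in the fits of all embryos with the count filter, at medians of −0.03 and −0.14 in HLHS hearts. In controls the medians were 0.03 and 0.00. Above 0 were 27 and 2 genes of these lists in HLHS hearts, and 50 and 11 in controls. Without the E17.5 HLHS embryo 3 oxidative phosphorylation genes were right-sided, and 1 was with no count filter. Of 34 fatty acid oxidation genes, 1 passed on the right (2.94%, beside 2.71% of all genes). It was Perm1, a regulator of muscle metabolism (−0.66 ± 0.12), and did not pass without the E14.5 embryo. Of the list, 3 were above 0 in HLHS hearts (median −0.19) and 6 in controls (median −0.08). Without the E17.5 embryo 10 of 35 were right-sided (median −0.32). Sap130 stood at 39.2, 26.1 and 34.1 CPM on the left and 36.3, 28.0 and 32.2 CPM on the right (0.03 ± 0.09).

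Markers of the other cell types moved with the sides in part. Over all genes tested, 0.855% were higher on the left and 2.71% on the right in HLHS hearts, and 2.1% and 4.04% in controls. Of 10 endocardial markers, 4 were right-sided (40%) and 0 left-sided in HLHS hearts, and 6 in controls, and they summed to 0.997, 0.558 and 0.592 of the right level in the 3 HLHS embryos. They included Cytl1 (−1.60 ± 0.33), Gata5 (−1.19 ± 0.26), an endocardial transcription factor, and Hapln1, and these 3 calls were lost without the E14.5 embryo, where 0 of the list passed. Without the E13.5 embryo 7 were right-sided. Of 19 endothelial markers, 1 (5.26%) was left-sided, Fabp4 (0.46 ± 0.08), a fatty acid carrier of capillaries, a call lost without the E13.5 embryo. Of 14 epicardial markers, Krt19 and Tbx18 were left-sided (14.3%) and Gpm6a right-sided (7.14%). Without the E14.5 embryo the calls of Krt19 and Gpm6a were lost. Tbx18, a transcription factor of the epicardium and of left ventricular muscle, stood at 73.5, 85.8 and 87.9 CPM on the left and 45.8, 43.3 and 54.1 CPM on the right (0.79 ± 0.09, and 0.69 ± 0.08 in controls). Of 16 leukocyte markers, 2 were right-sided (12.5%) and 0 left-sided in HLHS hearts. They were the macrophage mannose receptor gene Mrc1 (−0.62 ± 0.12) and F13a1 (−0.56 ± 0.11), the coagulation factor XIII A chain of macrophages. In controls 2 of 16 were right-sided too (12.5%) and 0 left-sided. Mrc1 passed there (−0.27 ± 0.06) and F13a1 did not (0.04 ± 0.12). The median of the list was −0.23 in HLHS hearts and 0.21 in controls. The 17 markers matched summed to 0.785, 0.804 and 0.851 of the right level in the HLHS embryos and to 0.753 to 1.53 in controls. Both HLHS calls were lost without the E14.5 HLHS embryo, where 0 of the list passed. The part of these cells in the chamber differences was not tested.

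The difference between HLHS and control in the side effect was tested over all 16 libraries. Of 16209 genes, 3 passed (0.0185%), all more right-sided in HLHS hearts, and 1397 had an unadjusted p under 0.05. Tmem26, a transmembrane protein gene, stood at 2.80, 2.30 and 1.94 CPM in the left and 13.1, 14.2 and 7.93 CPM in the right HLHS ventricles, and at 6.22, 5.92, 5.48, 5.40 and 5.11 CPM in the left and 3.93, 10.3, 5.72, 4.93 and 5.74 CPM in the right control ventricles. The HLHS left ventricles were lower than every other library. The HLHS difference minus the control difference was −2.22 ± 0.28 (adjusted p = 0.0382).

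Tppp, a tubulin polymerisation promoting protein, stood at 9.98, 7.23 and 14.2 CPM in the left and 21.1, 20.7 and 34.5 CPM in the right HLHS ventricles, and at 21.9, 19.6, 20.5, 29.6 and 26.9 CPM in the left and 26.1, 23.9, 26.8, 34.3 and 35.4 CPM in the right control ventricles (−0.98 ± 0.11, adjusted p = 0.0235). Its left HLHS levels lay below all others. P4ha3, a prolyl hydroxylase of collagen, stood at 22.6, 22.5 and 17.1 CPM in the left and 44.9, 40.5 and 34.4 CPM in the right HLHS ventricles, with controls between 23.9 and 32.4 CPM on both sides (−0.85 ± 0.11, adjusted p = 0.0387). The HLHS left libraries lay below and the right ones above the control range. None of the 3 passed without control replicate 3, 4 or 5, where 0 genes were called, and Tmem26 and P4ha3 did not pass without the E14.5 HLHS embryo. P4ha3 also did not pass without control replicate 1. In all these fits the values kept their sign, and 25, 25 and 135 genes passed without HLHS replicate 1, control replicate 2 and HLHS replicate 3.

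When side was allowed to differ by stage, 158 genes passed (0.975%), 81 more left-sided (0.5%) and 77 more right-sided (0.475%) in HLHS hearts, the 3 above among them. Of the 546 genes called in HLHS hearts, 87 were in this set. Mylk4, a myosin light chain kinase, had −2.17 ± 0.29 in this fit. It stood at 2.04, 1.46 and 4.74 CPM in the left and 5.14, 3.98 and 29.9 CPM in the right HLHS ventricles. Ckmt2, the mitochondrial creatine kinase, stood at 8.88, 5.89 and 33.8 CPM on the left and 9.22, 11.6 and 50.3 CPM on the right in HLHS hearts (−0.54 ± 0.17), was left-sided in controls (0.58 ± 0.07), and had −1.15 ± 0.16 for the difference. Bmp10, a trabecular growth factor, stood at 40.6, 7.02 and 8.56 CPM on the left and 47.4, 32.8 and 22.3 CPM on the right (−1.22 ± 0.32, adjusted p = 0.088). In controls it was left-sided (0.77 ± 0.16), and the difference was −2.03 ± 0.34. Bmp2, a growth factor of the cushions, was right-sided in controls (−1.88 ± 0.21) and had −0.59 ± 0.19 in HLHS hearts, a difference of 1.27 ± 0.22. Pak6, a kinase, was left-sided in HLHS hearts (0.67 ± 0.08) and had 0.07 ± 0.05 in controls. Ckmt2, Bmp10, Bmp2, Mylk4 and Pak6 did not pass without the term for side by stage.

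**Figure D5:**
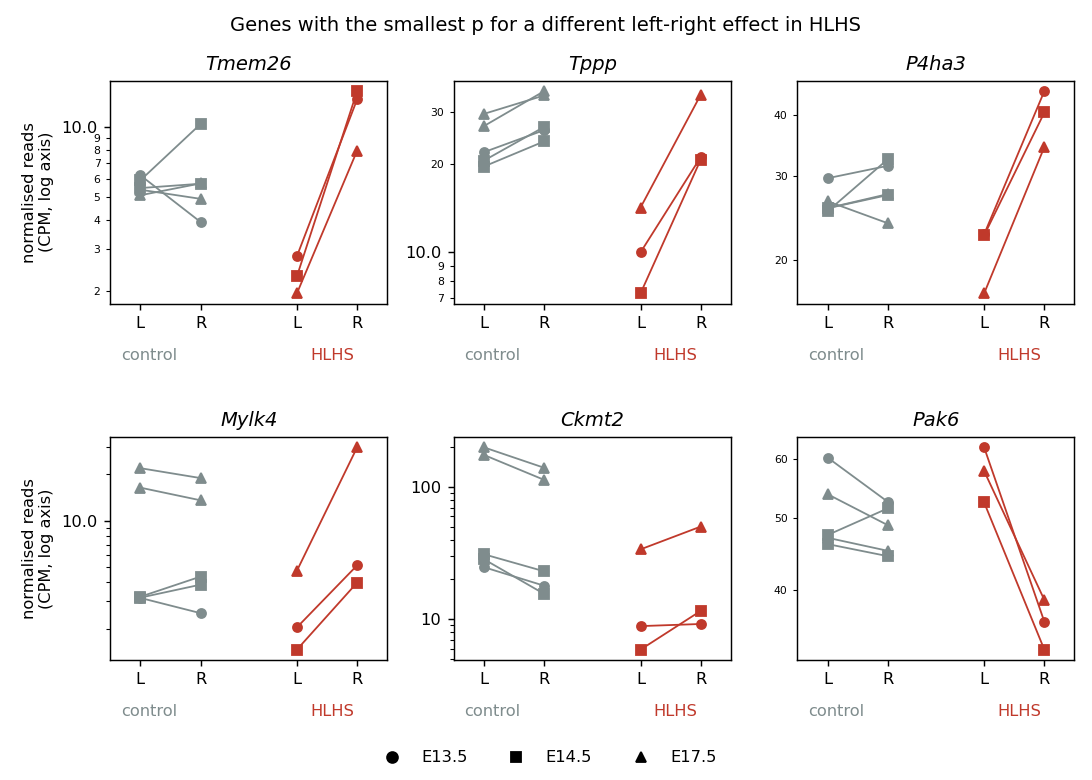
Normalised read counts (CPM, log axis) of the 6 genes with the smallest p in the test of HLHS against control by side, in the left (L) and right (R) ventricle of each embryo. Each line joins the ventricles of 1 embryo, grey for controls and red for HLHS, with the marker giving the stage. For Tmem26 the HLHS left ventricles lie at 1.94 to 2.80 CPM and the right ones at 7.93 to 14.2 CPM, on either side of most controls.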

How the data were processed

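RNA of both ventricles of 8 mouse embryos (miRNeasy micro extraction, TruSeq RNA v2 libraries, per the labels' protocols) gave 16 libraries. The authors deposited 1 table of read counts, unnormalised whole numbers for each gene. TopHat2 2.0.9 and Picard, then HTSeq 0.5.4p5, are named in the submitters' processing notes beside edgeR 3.4.2 and build mm9. Strand setting, duplicate removal and annotation were not found in the labels, so antisense, overlapping and near-identical genes may share reads. The only coordinates are those of the RefSeq promoter table (GRCm38.p6), which held 87 of 123 named genes. Of 37991 entries, 32919 had a symbol, and the rest held 0.492% of the counts.

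edgeR 4.0.16 in R 4.3.3 was used for the tests (TMM, filterByExpr with minimum count 10 and minimum total 15, glmQLFit, glmQLFTest), and p-values were adjusted by Benjamini-Hochberg, threshold 0.05. HLHS sides were fitted on 6 libraries, control sides on 10 and their difference (an interaction) on 16, each with the embryo as a block. CPM levels used TMM factors over 16 libraries, and log2 CPM of single embryos a prior count of 2. The titles name the embryo of each ventricle, which gives the pairing. In deviations from the group means, left and right HLHS libraries of 1 embryo correlated at r = 0.669, 0.416 and 0.693, and those of different embryos at −0.596 to −0.024. Each HLHS embryo was the only one of its stage and litter, so shared stage could give these values too. Deviations from a group mean also lean negative between embryos, so the pairing rests on the titles alone. Of 26 pairs of libraries within groups, none was a repeat (chi-square of counts at least 7.51 per degree of freedom). The Wilson interval covers the counting error over genes only. Each SE comes from the quasi-likelihood test and includes the spread between embryos that is left after the block.

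The comparison, the 41 gene lists and the rule for named genes were chosen with earlier results of these data known, and lists have no set test. The rule takes the 15 largest differences on each side in HLHS and the 10 largest in controls (average log2 CPM of at least 2, same direction in every embryo, unnamed gene models left out), the 6 genes with the smallest p in the difference test, up to 6 called members of each list and a fixed set. Not all are in the text.

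On simulated data with 200 genes changed 2-fold, the fits recovered 93.5% (HLHS sides, 15121 genes), 100% (control sides, 15222) and 92.5% (difference, 16084), and 11.0%, 6.98% and 5.61% of the calls were unchanged genes. The changed genes were drawn only from those well above the count filter, and each had the same change in every altered embryo. Recovery at low levels, or of differences that vary between embryos, was not tested. Alternatives were DESeq2 1.42.0 and its size factors, limma-voom (limma 3.58.1), no count filter, at least 1 CPM in 3 libraries, no block, erythroid genes left out, all 16 libraries in 1 fit, side by stage, each embryo left out, and, added after seeing the data, 1 control per litter. The workbook of the authors' comparisons was not used here.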

Additional observations from a re-analysis of the deposited data

Results flagged for a closer look

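In 3 genes the difference between left and right was not the same in HLHS and control hearts by the interaction test over 16 libraries (edgeR, adjusted p under 0.05). The HLHS difference minus the control difference, on the log2 scale, was −2.22 for Tmem26, −0.98 for Tppp and −0.85 for P4ha3. Each was lower on the left in 3 of 3 HLHS embryos. In the 35 genes checked, the left minus right of no control embryo lay far from those of the other controls (groups of 5 controls, Dixon's test). About 1 group in 20 holds such a value by chance. HLHS embryos and single libraries were not checked in this way.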

How the results depend on the processing

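The HLHS count of 546 was 1309 with no count filter, 1131 with all 16 libraries in 1 fit (replicate block kept), and 4 with no replicate block, and the fits that left out 1 embryo gave 270 to 1117. All 546 genes kept their direction with DESeq2, limma-voom, no filter or no block, which use the same libraries and so give no independent evidence. The control count of 943 was 1570 with no filter, 32 with no replicate block, 459 to 855 with 1 embryo left out, and 213, 299, 416 and 228 with 1 control per litter (the 4 choices). The 3 genes of the difference test became 133 with DESeq2, 5 with limma-voom, 217 with no filter, 0 with no replicate block, 158 with side by stage and the replicate block, and 0 to 135 with 1 embryo left out. The cause was not tested for any of these counts. The share of control differences with the same sign in HLHS hearts (92.3%) was 97.34% for those at least 2-fold, 94.286% with the 16-library fit, 88.116 to 94.333% with 1 embryo left out, and 96.154, 95.876 and 90.22% in 3 of the 4 choices of 1 control per litter. Control calls that passed with the other sign in HLHS hearts, 0 at first, were 19 without the E17.5 HLHS embryo, 3 without the E13.5 one and 1 with DESeq2. Of the single genes, 4 that did not pass changed sign: leaving out 1 HLHS embryo gave −0.11 to 0.17 for Tbx20, −0.13 to 0.10 for Hey2, −0.74 to 0.69 for Acta1 and −0.79 to 0.23 for Casq1, and Acta1 had −0.00895 with DESeq2 and Casq1 0.0135 with no replicate block. The other single genes run under these alternatives kept their sign. With 3 HLHS embryos, each at another stage, the fits cannot separate embryo from stage, and calls of genes under about 1 CPM on 1 side rest on few reads.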
